A study of Homo sapiens with 2 samples.

Results

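The zinc finger genes of human chromosome 19 contributed 362 skipped exons to the table of exon skipping events in HEK293T cells. Members were all rows on chromosome 19 whose gene symbol is ZNF followed by a digit. They covered 509 events in 153 genes, of 67154 exons, 113456 events and 11965 genes in the whole table. Rows with the same exon boundaries and strand were counted as 1 exon, and an exon can have several events because its neighbours on either side can vary.

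HEK293T is a cell line derived from human embryonic kidney. Polyadenylated RNA was sequenced from untreated cells and from cells given the diuretic amiloride at 300 µg/mL for 6 h, with 1 library for each condition. The authors compared the libraries with rMATS and deposited 5 tables of splicing events. The columns of reads and inclusion levels number the libraries without naming the condition, and the remaining values are the authors' own comparison. Neither kind was used, so no inclusion level, direction after amiloride, depth or p-value is given, and what follows describes which exons were listed and their sequence. No gene expression level was used either, so the identity of the cell line could not be checked against its markers.

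Most ZNF genes of chromosome 19 encode a KRAB zinc finger protein. The KRAB domain near the N terminus is made of an A box and often a B box, each on a short exon of its own, and it binds the corepressor TRIM28, which brings in enzymes that silence chromatin. The array of C2H2 zinc fingers binds DNA and usually lies on a single long last exon. The genes arose by tandem duplication and stand in clusters along the chromosome, and many of the proteins silence transposable elements.

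The most frequent exon among the members was the one that encodes the KRAB A box. The 86 exons of 127 bases, in 85 genes, made up 23.8% of the member exons (95% Wilson interval, 19.7 to 28.4). Of the 66792 other exons in the table, 482 had this length, or 0.722% (interval 0.660 to 0.789). The following 8 exons are shown because they belong to genes with many listed exons, many events or a known function. They are given 5′ to 3′ on the coding strand of GRCh37, and capitals mark the 54 bases that encode the A box motif from EEW to VM:
ZNF559, chr19:9449869-9449995, plus strand: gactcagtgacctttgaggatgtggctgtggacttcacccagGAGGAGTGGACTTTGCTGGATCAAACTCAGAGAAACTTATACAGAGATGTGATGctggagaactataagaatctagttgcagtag
ZNF266, chr19:9529181-9529307, minus strand: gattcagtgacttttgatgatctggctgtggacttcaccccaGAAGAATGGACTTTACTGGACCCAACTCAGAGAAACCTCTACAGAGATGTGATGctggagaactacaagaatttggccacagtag
ZNF561, chr19:9727721-9727847, minus strand: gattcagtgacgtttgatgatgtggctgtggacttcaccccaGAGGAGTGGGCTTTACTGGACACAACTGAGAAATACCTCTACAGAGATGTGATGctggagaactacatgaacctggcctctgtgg
ZNF562, chr19:9768685-9768811, minus strand: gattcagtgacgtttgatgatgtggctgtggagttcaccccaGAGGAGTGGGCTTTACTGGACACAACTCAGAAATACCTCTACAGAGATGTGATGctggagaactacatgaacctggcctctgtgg
ZNF91, chr19:23557440-23557566, minus strand: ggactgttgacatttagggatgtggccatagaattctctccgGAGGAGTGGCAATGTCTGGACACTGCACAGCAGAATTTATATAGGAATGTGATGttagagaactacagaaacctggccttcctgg
ZNF175, chr19:52084644-52084770, plus strand: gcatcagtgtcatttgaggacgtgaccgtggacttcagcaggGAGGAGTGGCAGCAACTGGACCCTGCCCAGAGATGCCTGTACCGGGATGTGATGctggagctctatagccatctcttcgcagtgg
ZNF83, chr19:53122189-53122315, minus strand: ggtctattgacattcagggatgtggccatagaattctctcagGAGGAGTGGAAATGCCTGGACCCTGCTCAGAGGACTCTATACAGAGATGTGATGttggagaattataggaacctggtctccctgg
ZNF417, chr19:58423428-58423554, minus strand: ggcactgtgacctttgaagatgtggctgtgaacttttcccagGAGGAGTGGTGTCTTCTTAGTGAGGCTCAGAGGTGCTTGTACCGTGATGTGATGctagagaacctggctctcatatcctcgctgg

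The 8 sequences have the same length and the same place for the motif. The exons of ZNF561 and ZNF562, whose starts lie 40964 bases apart on the chromosome, differed at 2 of 127 bases. The length of 127 bases corresponds to 42 codons plus 1 base, so skipping it shifts the frame where the coding sequence starts upstream. The annotated coding sequence of at least 1 transcript began within 36 of the 86 exons, and skipping removes that start in the transcripts that use it. The same exon can be coding throughout in other transcripts.

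**Figure D1:**
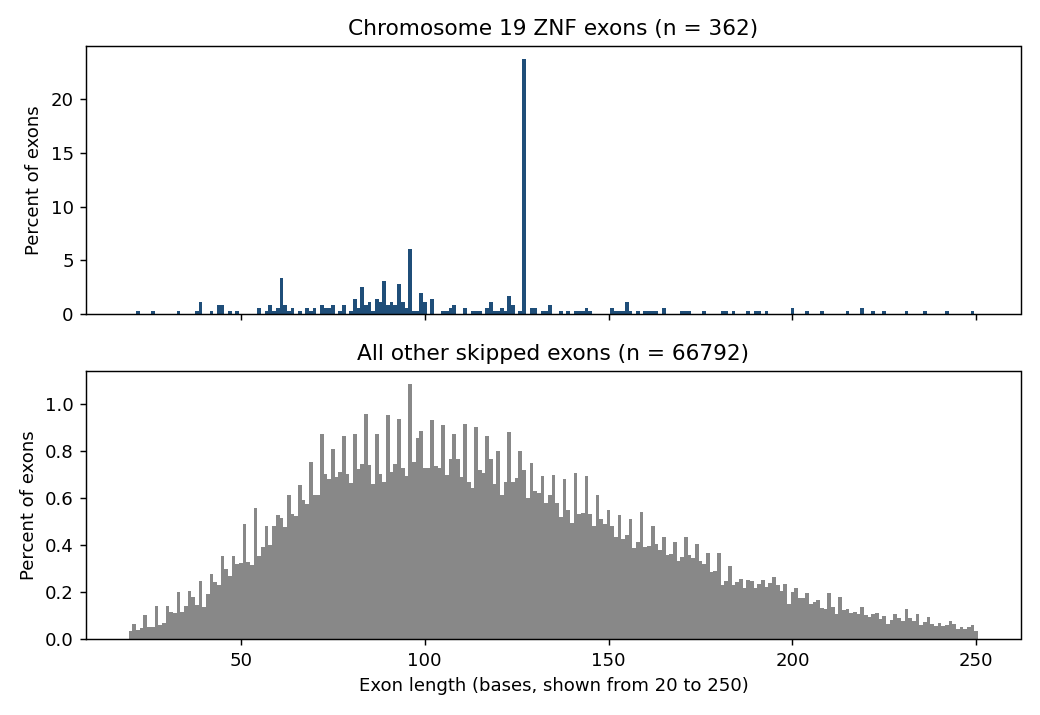
Share of distinct skipped exons (percent) at each exon length (bases) for the 362 chromosome 19 ZNF exons, top, and the 66792 other exons, bottom, with separate vertical scales. A single bar at 127 bases holds 23.8% of the ZNF exons, and a smaller one at 96 bases holds 6.08%, while no length holds more than about 1.09% of the other exons.

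The lengths of the member exons spread less than those of other exons. Their median length was 108 bases (quartiles 87 and 127), against 114 bases (quartiles 83 and 154) for all other exons. After 127 bases, the next most frequent length was 96 bases, with 22 exons in 21 genes (6.08%, interval 4.05 to 9.03), against 1.09% of other exons. Lengths of 61, 89, 93 and 83 bases followed with 12, 11, 10 and 9 exons. A total of 13 genes had both a 127-base and a 96-base exon in the table. ZNF genes on other chromosomes showed the same most frequent length in a smaller share, with 61 of 697 exons (8.75%) at 127 bases and 4.30% at 96 bases. Among the other genes of chromosome 19, 17 of 3362 exons (0.506%) had 127 bases.

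The 127-base exons were coding in every case. By the most common annotation of each exon across its transcripts, 79 of the 86 were coding throughout and began at the first base of a codon. The other 7 were coding in part. The fixed A box motif (EEW, 6 to 12 residues, R, any residue, VM) was found in 48 of them and in 3 member exons of other lengths, in ZNF382, ZNF417 and ZNF584. The remaining exons did not match every letter of the motif. When all 85 exons that could be translated were compared with the most common residues of the motif-bearing exons, the median identity was 69.0% and 84 reached at least 50%. ZNF473 was the exception at 31.0%, followed by ZNF180 at 52.4% and by ZNF17 and ZNF749 at 54.8%. ZNF274, which binds the 3′ ends of other zinc finger genes, was the only gene with 2 exons of 127 bases, exons 3 and 8 of the 9 in its canonical transcript, and both encoded the motif.

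Most of the 96-base exons encoded the B box. Of the 22, 21 were coding, 20 of these began at the same position within a codon, and 15 held the B box motif (LE, 4 residues, PW). Over all members, 23 exons held the B box motif and 6 held at least 1 C2H2 zinc finger motif. Arrays of fingers lay on a 2076-base exon of ZNF714, with 12, and on a 1537-base exon of ZNF550, with 8. A last exon has no downstream partner and cannot enter this table.

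Across the 127-base exons some positions hardly varied. The most common base was present in 76.7% of exons on average over the exon, in at least 90% at 44 positions and in all exons at 12 positions. At 11 positions it was present in fewer than 50%.

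**Figure D2:**
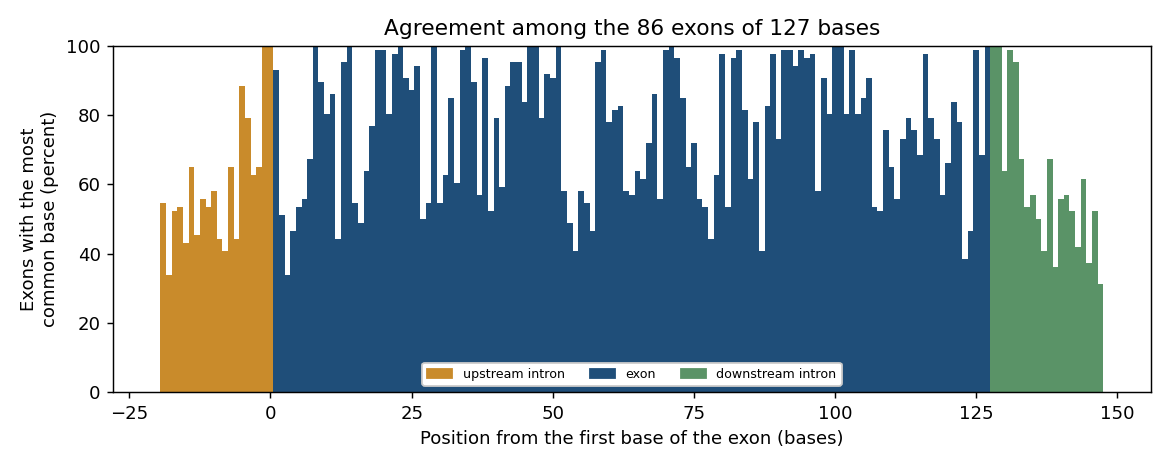
Percent of the 86 exons of 127 bases that carry the most common base at each position, counted in bases from the first base of the exon, with the flanking intron on either side. At 12 exon positions all 86 exons carry the same base. Agreement in the upstream intron is below the exon average of 76.7% apart from the AG and the positions at 88.4% and 79.1%.

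Exons close together on the chromosome were more alike. The 3655 pairs of 127-base exons had a median identity of 66.1% (range 45.7 to 98.4%). The 393 pairs within 1 Mb had a median of 78.0%, against 65.4% for the 3262 pairs farther apart. Each exon's best match had a median identity of 89.0% (range 60.6 to 98.4%), and for 56 of the 86 exons it lay within 1 Mb. The closest pairs, ZNF320 with ZNF765, ZNF845 with ZNF765 and ZNF561 with ZNF562, differed at 2 bases. ZNF264 and ZNF805, ZNF808 and ZNF611, and ZNF83 and ZNF320 differed at 3 bases. No member exons of different genes were identical, but 24 pairs over all lengths were at least 95% identical, and reads within such exons separate the genes by few bases. Pairs share exons, so these values are not independent of each other.

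**Figure D3:**
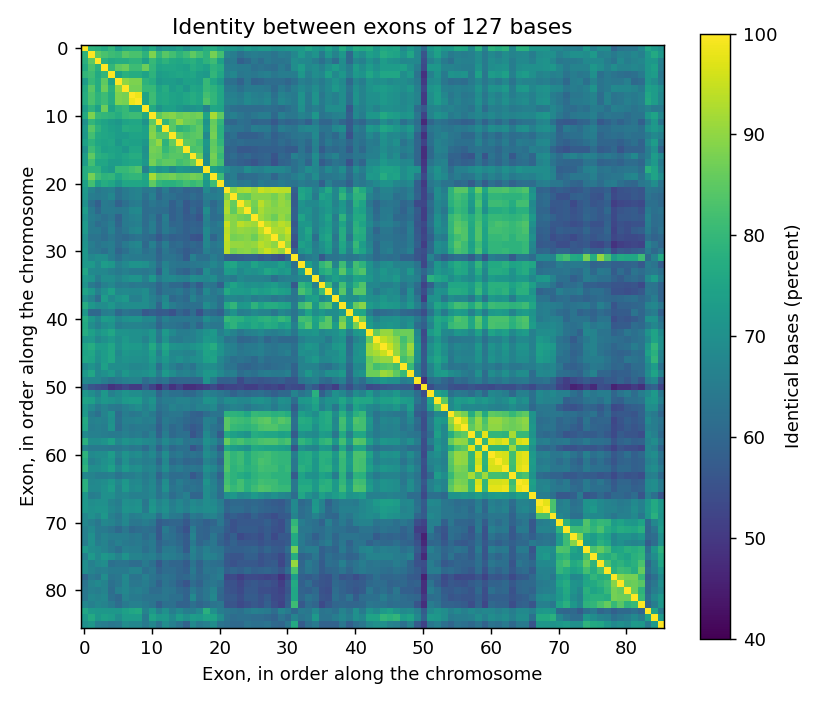
Percent of identical bases between each pair of the 86 exons of 127 bases, ordered along chromosome 19 on both axes. Light squares on the diagonal are runs of similar neighbouring exons, with a median of 78.0% within 1 Mb against 65.4% for farther pairs.

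The 127-base exons had low 3'SS scores on average, and the scores differed between stretches of the chromosome. The splice site score used here sums, over the bases of a site, the log2 ratio of each base's frequency at annotated sites to an equal frequency, so it is in bits and higher means closer to the usual site. The 3'SS score of the 127-base exons was 6.32 ± 3.28 (mean ± SD over 86 exons), against 9.52 ± 3.32 for the other 276 member exons and 8.92 ± 3.21 for the 421 exons of 127 bases in genes without a ZNF symbol. ZNF exons of 127 bases on other chromosomes scored 6.64 ± 2.89 (n = 61). The ranges overlapped widely, since single 127-base members ran from −2.86 in ZNF443 to 12.46 in ZNF460. Exons are not replicates of a condition and related exons share ancestry, so these spreads carry no test.

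The low scores lay mainly in the first 20 Mb. The 21 exons there scored 2.49 ± 2.07, with a highest value of 6.87, and their tracts held 51.3% pyrimidines on average. The 10 exons from 20 to 25 Mb, among them ZNF91, scored 9.38 ± 1.24 with 68.3% pyrimidines, and the 16 exons from 50 to 55 Mb scored 8.47 ± 2.42. Scores were 7.02 ± 2.65 from 35 to 40 Mb (n = 10), 6.82 ± 1.82 from 40 to 45 Mb (n = 9) and 6.53 ± 2.84 from 55 to 60 Mb (n = 20). The 65 exons beyond 20 Mb scored 7.56 ± 2.56 together. The split at 20 Mb was chosen after the values were seen, and neighbouring exons are related in sequence.

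The polypyrimidine tract of these exons held fewer pyrimidines. Pyrimidines made up 60.3% ± 9.55 of the 18 intron bases before the AG in the 127-base members, 61.4% ± 11.6 in 127-base ZNF exons on other chromosomes, 75.1% ± 11.0 in the other members and 75.4% ± 11.0 in 127-base exons without a ZNF symbol. The trinucleotide ATG occurred in those 18 bases in 52 of the 86 exons (60.5%), against 14.5% of other members, 31.1% of 127-base ZNF exons elsewhere and 14.7% of 127-base exons without a ZNF symbol. The sites below are shown to set low-scoring tracts with purines and ATG beside 2 that score high, with 20 intron bases followed by 3 exon bases and the AG in capitals:
ZNF559 3'SS: gcatgtgtgtgatggtttAGgac
ZNF561 3'SS: gcatgtgtatgatgacatAGgat
ZNF443 3'SS: gtacatgtgggatggatcAGgcc
ZNF91 3'SS: tgtttgtgtgtgtttttcAGgga
ZNF420 3'SS: cattttgtttgttgtttcAGaaa

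The scores of these sites were 1.06 for ZNF559, 0.75 for ZNF561 and −2.86 for ZNF443, with 50%, 44.4% and 38.9% pyrimidines. ZNF91, a repressor of SVA transposons, scored 11.01 with 72.2% pyrimidines, and ZNF420 scored 12.25 with 77.8%. ZNF77 (0.50) and ZNF627 (0.61) were also among the lowest, and ZNF264 (11.74) among the highest.

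The 5'SS of the 127-base exons were much alike in sequence, with a mean score near those of other exons and a lower median. Their score was 7.85 ± 1.36, against 8.40 ± 3.30 for other members and 7.70 ± 2.69 for 127-base exons without a ZNF symbol. The medians were 7.48, 8.89 and 8.03 in the same order. The 127-base ZNF exons on other chromosomes had a mean of 7.73 ± 1.29 and a median of 7.48. The third base from the exon end was T in 85 of 86 exons (98.8%), against 93.4% of 127-base ZNF exons on other chromosomes, 12.7% of other members and 16.2% of 127-base exons without a ZNF symbol. Of the 9-base sites, TGGGTGAGG occurred in 21 exons, TGGGTAAGG in 20 and TAGGTAAGG in 14, together 55 of 86 (64.0%). The same sites made up 45.9% in 127-base ZNF exons on other chromosomes and 2.38% in 127-base exons without a ZNF symbol. The sites are shown with 3 exon bases followed by 6 intron bases and the GT in capitals:
ZNF559 5'SS: tagGTaagg
ZNF561 5'SS: tggGTaaga
ZNF91 5'SS: tggGTaagg
ZNF83 5'SS: tggGTgagg

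The last 3 exon bases also encode protein, so agreement in them is shared with the coding sequence of the A box. The 22 exons of 96 bases had 5'SS scores of 10.35 ± 1.24 and 3'SS scores of 8.67 ± 1.86, and the 15 of them with the B box motif had 10.39 ± 1.20 and 8.56 ± 1.52.

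**Figure D4:**
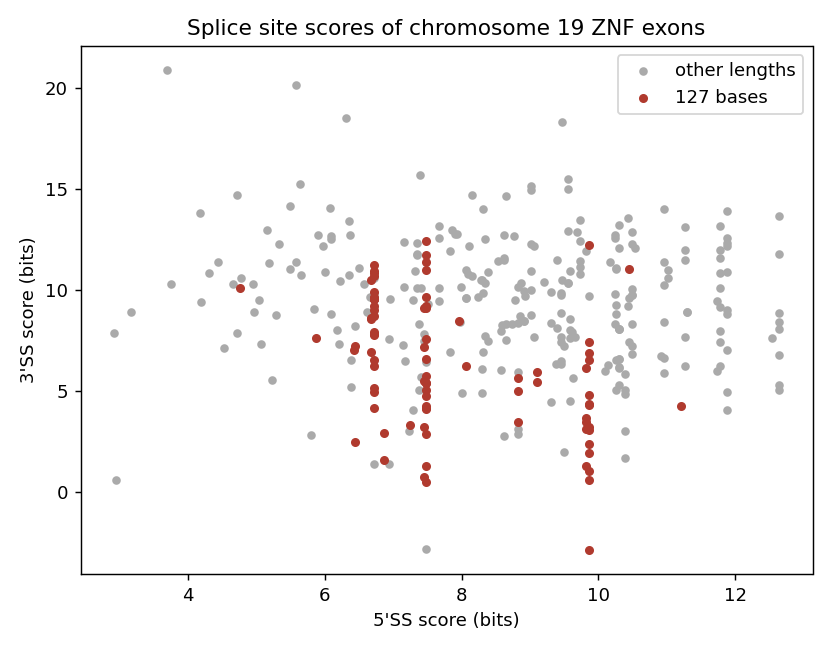
5'SS score against 3'SS score (both in bits) for 357 member exons, 1 point per exon, with 5 exons whose 5'SS score was below −5 left out. The 127-base exons (red) line up at a few 5'SS scores because they share sites, and their 3'SS scores, 6.32 on average, lie lower than those of other lengths, 9.52 on average, with wide overlap.

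Over all members, the mean scores were 8.27 ± 2.96 for the 5'SS and 8.76 ± 3.57 for the 3'SS, against 7.76 ± 2.82 and 9.10 ± 3.47 for all other exons. These differences were smaller than the spread among exons. The introns beside the 127-base exons were unequal, with a median of 4521 bases upstream and 1575 downstream, whereas 96-base exons had 1069 upstream and 8705 downstream. The 127-base ZNF exons on other chromosomes were unequal in the same direction, with 5913 upstream and 1435 downstream. The 127-base exons in genes without a ZNF symbol had 2224 and 1966. Over all members the medians were 2559.5 and 2456.5 bases, against 2200 and 2001 for other exons. ZNF genes on other chromosomes had 2518 and 2499, and the other genes of chromosome 19 had 1089 and 982.5.

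Not every annotated 127-base exon of these genes was listed. The exons counted here were grouped by length, so those not listed are not shown to encode the A box. GENCODE annotates 209 internal coding exons of 127 bases in the ZNF genes of chromosome 19, and 86 of them (41.1%) were listed as skipped. The shares were 24.4% for 96-base exons (21 of 86) and 29.7% for other lengths (181 of 609). The share of annotated exons listed was not computed for other genes, so 41.1% is not shown to be particular to these genes. Among annotated 127-base exons, the 3'SS score was 6.32 ± 3.28 where listed and 7.47 ± 3.40 where not listed, a difference smaller than either SD. The 5'SS scores were 7.85 ± 1.36 and 7.77 ± 1.28. The length classes come from different though overlapping sets of genes, and no difference between their shares was tested. Whether an exon is listed also depends on reads from its gene, which were not used, and their part in these shares was not tested.

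The listed events that skip the A box exon join the exon before it to various later exons. Reads on these junctions were not used, so the joins are listed and not shown to occur. Of the 130 events that skip a 127-base exon, 92 (70.8%) had an upstream exon in which an annotated coding sequence began. Transcripts with an incomplete 5′ end were not set apart, so some of these exons may hold no start codon. In 67 events (51.5%) the downstream partner held zinc finger motifs, with a median of 12 fingers and up to 31, and a median exon length of 3620 bases. In 15 (11.5%) the partner held the B box motif, and 20 joined to an exon of 96 bases. Of the 31 events that skip a 96-base exon, 25 (80.6%) joined directly to an exon with zinc finger motifs. Over all member exons, 126 (34.8%, interval 30.1 to 39.9) had a length divisible by 3, against 38.8% of other exons. Any protein made from such transcripts was not measured.

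Many of the skipping junctions were already annotated. The junction that skips the exon was present in a GENCODE transcript for 205 of the 509 member events (40.3%, interval 36.1 to 44.6), against 17.9% of other events (interval 17.6 to 18.1). The share was 30.6% for ZNF genes on other chromosomes and 16.8% for the other genes of chromosome 19. For events skipping a 127-base exon it was 34.6% (interval 27.0 to 43.1). Events of 1 exon overlap in their junctions, so the intervals cover counting error only. The annotation given to rMATS is not stated in the sources used here, and its part in these shares was not tested.

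Fewer member exons than other exons were coding. A total of 296 (81.8%, interval 77.5 to 85.4) overlapped coding sequence, against 95.2% of other exons, and 66 lay outside it. The share was similar in ZNF genes on other chromosomes, at 83.6% (interval 80.7 to 86.2). It was 97.8% in the other genes of chromosome 19. The annotated coding sequence of at least 1 transcript began within 132 member exons. Most member exons (258, or 71.3%) appeared in exactly 1 event, against 59.9% of other exons and 65.3% of exons in ZNF genes on other chromosomes.

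The 153 genes included 149 of the 248 coding ZNF genes that GENCODE annotates on chromosome 19 (60.1%). The share of all annotated coding genes that were listed was not computed, so 60.1% is not shown to be particular to these genes. Read-through symbols such as ZNF559-ZNF177 and ZNF816-ZNF321P count as genes of their own. The other symbols were the antisense genes ZNF529-AS1, ZNF561-AS1 and ZNF582-AS1, and ZNF724P. The sources used here do not say whether strand was used in counting, and without it reads of an antisense gene and its partner cannot be told apart. The exons fell into clusters. The stretch from 55 to 60 Mb held 64 exons in 34 genes, that from 35 to 40 Mb held 62 in 25 genes, that from 50 to 55 Mb held 61 in 25 genes and that from 5 to 10 Mb held 53 in 14 genes. From 15 to 20 Mb there were 3 exons, and from 30 to 35 Mb there were 2. Of the 127-base exons, 20 lay from 55 to 60 Mb and 16 from 50 to 55 Mb. A total of 185 exons in 85 genes were on the plus strand and 177 in 68 genes on the minus strand.

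The number of listed exons varied between genes. A single exon was listed in 55 genes and a pair in 46, while ZNF266 had 11 exons in 16 events. ZNF573 followed with 8 exons in 12 events, ZNF83 with 8 in 11, ZNF559 with 7 in 17 and ZNF227 with 7 in 8. ZNF274 had 6 exons in 13 events and ZNF45 had 6 in 6. A further 8 genes had 5 exons, namely ZNF562 in 20 events, the most of these genes, ZNF180 in 12, ZNF426 in 9, ZNF211 in 8, and ZNF283, ZNF333, ZNF550 and ZNF714 in 5 each. Many of these exons were variants of each other, such as 3 exons of ZNF227, of 176, 158 and 155 bases, that end at the same base.

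The exon with the most events was the A box exon of ZNF562, exon 4 of 6, with 7 events, and the 107-base exon that follows it had 6. Another 7 exons had 4 events each. They were the 89-base exon 4 and the 127-base exon 5 of 7 in ZNF559, 127-base exons in ZNF561, ZNF607 and ZNF274, and 89-base exons in ZNF420 and ZNF180. In ZNF559 the 3'SS score fell from 13.66 at exon 4 to 1.06 at exon 5. The shortest member exons were 22 bases in ZNF714, 26 in ZNF226, 33 and 38 in ZNF615 and 39 in each of ZNF772, ZNF419, ZNF549 and ZNF211. After the finger exons of ZNF714 and ZNF550, the longest were 933 and 347 bases in ZNF550 and 612 bases in ZNF653.

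Of 17 genes chosen for their known functions, 7 had skipped exons listed, with 19 exons in 30 events. Over all coding ZNF genes of chromosome 19, 149 of 248 (60.1%) were listed, and the difference was not tested. ZNF91 had its A box and B box exons, of 127 and 96 bases. ZNF274 had 6 exons. ZNF417, a repressor of endogenous retroviruses, had overlapping exons of 127 and 130 bases that both encoded the A box motif. ZNF808, which is needed for pancreas development, had exons of 102 and 127 bases. ZNF175 had 127 and 252 bases, ZNF85 had 90, 99 and 127 bases, and ZNF302 had 121 and 132 bases, so it was the only listed gene of these without a 127-base exon. ZNF93, ZNF587, ZNF649, ZNF224, ZNF331, ZNF208, ZNF676, ZNF43, ZNF540 and ZNF181 had no skipped exon listed. ZNF587 and ZNF181 did have alternative 3'SS events.

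The corepressor and heterochromatin genes include TRIM28, which binds KRAB. All 16 corepressor and heterochromatin genes of the pathway list had skipped exons listed, 153 exons in 251 events. The whole table lists 11965 genes, and the general share of genes listed was not computed. The count is therefore not shown to be particular to this pathway. One exon of the chromatin remodeller CHD3 had 127 bases and one of ATRX had 96. TRIM28 had 11 exons in 22 events, the histone methyltransferase SETDB1 had 11 in 14 and the DNA methyltransferase DNMT1 had 25 in 48. Of 18 zinc finger symbols of chromosome 19 without ZNF, 3 were listed, a count that also has no general share beside it. ZFP112 is an older symbol of the member ZNF112, which had exons of 127 and 49 bases, so its absence says nothing. The listed ones were ZFP28 with 1 exon of 96 bases, ZSCAN22 with 1 and MZF1 with 3, and none of the 5 exons had 127 bases.

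The A box exon also led the events with mutually exclusive exons, in which 1 of a pair of exons is used. The members had 113 such events in 55 genes, 0.283% of the 39869 in the table. A 127-base exon took part in 68 of them (60.2%), in 34 genes, against 1.66% of all such events, and 9 paired a 127-base with a 96-base exon. All 113 events shared an exon with the skipped-exon table, so they are not separate evidence. Alternative 5'SS were listed in 44 events of 23 genes, and alternative 3'SS in 50 events of 35 genes. At the 3'SS, 20 of the 50 events (40%) shifted the site by exactly 3 bases, against 25.03% of all such events. These were 1.68% of all alternative 5'SS events and 1.74% of all alternative 3'SS events, against 0.449% of all skipped-exon events. Retained introns numbered 4 of 677 (0.591%). They were an intron of 6075 bases in ZNF714, one of 143 bases in ZNF226, and introns of 163 and 510 bases in ZNF582-AS1.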

How the data were processed

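Sequencing of poly(A)+ RNA of HEK293T cells gave 1 library of untreated cells and 1 of cells with 300 µg/mL of amiloride for 6 h. The submitters' processing notes name STAR 2.5.1 and the build hg19/GRCh37. The authors ran rMATS and deposited 5 tables. The rMATS version and its handling of strand are not given in the sources used here. From them only event positions, gene symbols and the effective lengths of the forms were used.

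Across the tables, 30 columns of read counts and inclusion levels number the libraries without naming the condition and were not used. A further 15 columns, 3 per table, hold the authors' own p-value, FDR and inclusion level difference and were not used. Depth is therefore not given, no test was run, and a listed event is only listed. In all 509 member events the inclusion form had an effective length equal to 125, the value of the skipping form, plus the exon length, so the authors' counts credited reads on the exon body.

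Coordinates are 1-based on GRCh37, and sequences were read from that genome. Exons lay between AG and GT in 98.6% of members and 98.9% of the table. Coding sequence, exon numbers and junctions came from GENCODE 44 lifted to GRCh37. Starts were taken from where an annotated coding sequence begins, not from separate start codon entries. Site scores sum log2 base frequency ratios over 9 bases for the 5'SS and 23 bases for the 3'SS, at 300873 and 300290 annotated sites, with a pseudocount of 0.5. Each exon's shortest listed introns were used. Intervals are 95% Wilson intervals and cover counting error only.

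The genes named are the 10 with the most exons, the 5 exons with the most events, the 5 shortest and 5 longest, up to 8 A box exons for sequence, and 17 genes of known function. Ties at the limits were broken by symbol or position, and the tied exons and genes are named as well. They comprise 8 genes with 5 exons, 7 exons with 4 events and 4 exons of 39 bases. The members and lists were chosen with earlier results of these data known. The other site sequences, the closest pairs, the lowest residue identities, the exons with motifs at other lengths, and the counts of T, ATG, pyrimidines, annotated exons and annotated junctions were chosen after values were seen. The motif search and scoring were tested on simulated data. Alternatives were events in place of exons, single-event exons, coding exons, annotated sites, other introns, other transcripts, any frame and a pseudocount of 5. Work was done with pandas 2.3.3, numpy 2.4.6, scipy 1.17.1 and matplotlib 3.10.9 under Python 3.11.15.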

Additional observations from a re-analysis of the deposited data

How the results depend on the processing

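Of 30 alternative values over 10 results, 22 stayed within the limits set and 8 did not. The limits were 1.5 times for a count and the 95% interval for a share, median or mean. They are wide for some values: 258 of the 362 member exons were in exactly 1 event, and the downstream intron median was 3392 bases over events, both within them. Among coding exons only, the share at 127 bases was 29.1% in place of 23.8%, and the mean 5'SS score was 8.59 in place of 8.27. Counting canonical or principal transcripts only, the coding share was 72.4% in place of 81.8%. The median upstream intron was 3248.5 bases with the longest listed intron and 3090 bases over events, in place of 2559.5, and the downstream one was 3853 bases with the longest, in place of 2456.5. Exons with a KRAB motif numbered 74, or 45 among exons in exactly 1 event, 77 in any of 3 frames, and 111 when residue identity of at least 50% was also accepted, an alternative chosen after seeing the data. Pairs of identical exons rose from 0 to 24 when 95% identity was enough.

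With 1 library per condition and no named library column, nothing here measures the effect of amiloride. Reads behind an event were not used, so an exon that is not listed was not shown to be always included. No paired analysis was possible because there is a single library on each side and no result comes from a test.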
